A study of Schizosaccharomyces pombe with 8 samples.

Results

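The ste11 locus of fission yeast (Schizosaccharomyces pombe) is described here through the DNA ends that were ligated to it after immunoprecipitation of the chromosome axis protein Rec27. Its members are the ligated pairs with at least 1 end in a stretch of 9560 bp on chromosome II, which runs from 5535 bp before the start of ste11 to the end of that gene and holds a region the authors class as hot. There were 645 such pairs of 101984 in the interacting library, against 1336 of 123434 in the de-crosslinked one, 1981 of 225418 in all. Pairs whose ends both lay within 500 bp of those of another pair were linked and counted once as an event, which left 276 events of 35511 in the interacting library, against 607 of 56018 in the de-crosslinked one.

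Both libraries came from pat1-114 rec12D cells that carry Rec27-GFP; pat1-114 is a temperature-sensitive allele used to start meiosis in synchrony, and rec12D removes the protein that cuts DNA in meiosis. Cells were starved of nitrogen for about 18 h and harvested 3.5 h after meiosis was started at 34 °C, and 500 mL of culture was fixed with 1% formaldehyde. Chromatin was sheared to about 1000 bp, and the recovered DNA was amplified with Sequenase and made into Nextera libraries of about 300 bp fragments. For the interacting library the precipitate was ligated as crosslinked complexes. For its control, the de-crosslinked library, DNA was freed of crosslinks and purified first. Of the 8 samples of the series 2 were analysed, 1 library per group, and none is an input or untagged control, so a high count cannot be read as binding of Rec27. Pairs and events are counts without replicates: intervals cover counting error only, and Fisher's exact tests compare these libraries, not the conditions. Of 45 two-sided Fisher's exact tests, 20 gave p under 0.05 and 19 did so after Benjamini-Hochberg adjustment over all 45; tests under the alternatives are not among them. The deleted rec12 gene held 1 end in the interacting library, against 1 end in the de-crosslinked one, 0.0599 and 0.0493 times the median gene per kb.

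ste11 encodes an HMG-box transcription factor that turns on mating and meiosis genes when nitrogen runs out. Ste11 binds a short element called the TR box, including at its own gene, and many signals that report nutrients act on ste11. Upstream of it lies rse1, a gene for a long non-coding RNA known to repress ste11. Rec27 belongs to the linear elements, protein axes that form along fission yeast chromosomes in meiosis, and is known to mark the places where meiotic breaks are concentrated.

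In the RefSeq annotation of ASM294v3, ste11 (SPBC32C12.02) spans 4025 bp on the plus strand, with a 5′ UTR of 2210 bp, its coding sequence at 3985586 to 3986992 of chromosome II and a 3′ UTR of 408 bp. rse1 (SPNCRNA.111) spans 3978331 to 3982106 on the minus strand and so runs away from ste11. The non-coding RNA gene SPNCRNA.6379 (3981658 to 3982993, plus strand) overlaps the first bases of rse1, and a gap of 382 bp with no annotated gene separates it from ste11. A further non-coding RNA gene, SPNCRNA.6378 (3978684 to 3981487, plus strand), lies inside rse1. SPNCRNA.6380 (3984372 to 3984962) and SPNCRNA.6381 (3985365 to 3986310) lie inside ste11 on the minus strand. Counts for rse1 and ste11 include ends in these genes. The authors' hot class covered 7899 bp up to 3985739, 1 of 451 runs of hot ends. The nearest cold ends lay at 3977803 and 3985806, so the class changes just inside the coding sequence. No base of the locus lies in sequence that a 50 bp word cannot place uniquely.

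Sequences are shown first for the 300 bases that end 6 bp before the start of ste11, which carries the element its own product binds, and for the densest 300 bases outside ste11 in the de-crosslinked library. Both are plus-strand sequence of ASM294v3. The first is chrII:3983071-3983370 and held 14 event ends in the interacting library, against 28 in the de-crosslinked one. The second is chrII:3982140-3982439, inside SPNCRNA.6379, and held 11 and 63 event ends. Capitals mark TTCTTTG (the TR box core), CCCCTC (the element bound by the stress regulator Rst2) and CCAAT, searched on both strands with no overlap between them here; ATGACGT (the M26 core bound by Atf1 and Pcr1) was searched too and has no match in either.
before ste11: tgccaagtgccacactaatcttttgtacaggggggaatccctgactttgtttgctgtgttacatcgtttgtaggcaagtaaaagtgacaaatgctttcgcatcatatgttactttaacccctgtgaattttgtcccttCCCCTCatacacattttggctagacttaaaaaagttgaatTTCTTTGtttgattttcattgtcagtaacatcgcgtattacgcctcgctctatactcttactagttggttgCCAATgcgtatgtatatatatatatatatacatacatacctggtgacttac
densest 300 bases outside ste11: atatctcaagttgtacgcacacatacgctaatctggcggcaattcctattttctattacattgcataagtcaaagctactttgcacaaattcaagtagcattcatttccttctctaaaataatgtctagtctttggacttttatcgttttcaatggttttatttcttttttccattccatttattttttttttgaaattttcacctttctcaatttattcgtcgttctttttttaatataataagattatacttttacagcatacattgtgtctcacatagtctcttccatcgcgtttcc

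The TR box core occurs in 9.68% of the 5112 promoters of 300 bases before coding genes, CCCCTC in 1.94%, CCAAT in 41% and ATGACGT in 1.6%. Over the whole locus TTCTTTG has 9 matches, 0.941 per kb against 0.441 per kb of genome, and CCCCTC has 4, 0.418 against 0.102 per kb. CCAAT stands at 2.51 per kb of the locus against 2.42 per kb of genome, and ATGACGT has 0 matches. Of the 9 TR box cores, 6 lie in ste11 and 3 before it, and 4 are followed by TT as in the longer consensus. These 4 are shown with their flanks on the strand of the match, core in capitals; their lowest base relative to the start of ste11 is at -4239, -127, 384 and 832 bp.
TR box core at -4239: attgcactctTTCTTTGttgcaccttt
TR box core at -127: aaagttgaatTTCTTTGtttgattttc
TR box core at 384: ctctattcttTTCTTTGttttgacttt
TR box core at 832: actaagttgtTTCTTTGttgcaatttt
A match is a description of the letters only.

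Ends were dense over the non-coding stretch upstream and the 5′ UTR, and near the genome mean in the coding sequence, in both libraries. The ste11 5′ UTR held 99 event ends in the interacting library, 44.8 per kb (95% Poisson interval 36.4 to 54.5), and 126 in the de-crosslinked library, 57 per kb (47.5 to 67.9). These densities are 7.93 and 6.4 times the genome mean of each library. The coding sequence held 10 event ends in the interacting library, 7.11 per kb (3.41 to 13.1), and 13 in the de-crosslinked library, 9.24 per kb (4.92 to 15.8), which are 1.26 and 1.04 times the genome mean. The 3′ UTR held 1 and 5 event ends.

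Upstream the libraries differ in where the density is highest. SPNCRNA.6379 beyond rse1 held 48.5 event ends per kb (35.1 to 65.3) in the interacting library, against 160 (135 to 189) in the de-crosslinked one, 8.58 and 18 times the genome mean. rse1 held 27.8 per kb (22.7 to 33.7) and 73.6 per kb (65.2 to 82.8), 4.92 and 8.26 times. The gap before ste11 held 52.4 per kb (32 to 80.9) in the interacting library, against 102 per kb (72.6 to 140) in the de-crosslinked one. As averages over each feature, the interacting densities of SPNCRNA.6379, the gap and the 5′ UTR had overlapping intervals, while the de-crosslinked library peaked over SPNCRNA.6379 and its interval there lies above that of the 5′ UTR. The flanks stood nearer the genome mean. The 10 kb before the locus held 7.1 and 9.2 event ends per kb, 1.26 and 1.03 times the mean. The 10 kb after it held 5.4 and 9.2, 0.956 and 1.03 times. Counted as pairs, the 10 kb before the locus stood at 1.31 times in the interacting library, against 0.896 times in the de-crosslinked one.

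**Figure D1:**
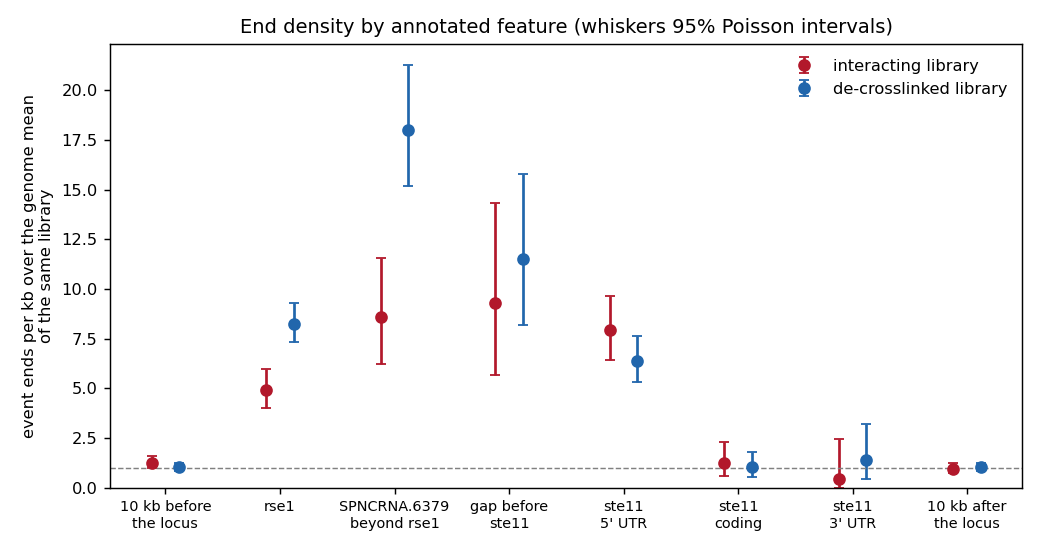
Event ends per kb of each annotated feature over the genome mean of the same library, interacting in red and de-crosslinked in blue, with 95% Poisson intervals; the dashed line is the genome mean. SPNCRNA.6379 stands at 8.58 times the mean in the interacting library, against 18 times in the de-crosslinked one, and the coding sequence of ste11 at 1.26 and 1.04 times.

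Long 5′ UTRs allow the drop at the coding sequence to be set against other genes. The comparison favours ste11, because the locus was defined by a hot region that ends just inside this coding sequence. The other genes were not chosen in this way, so a rank among them is a description and no test. The density in the 5′ UTR of ste11 was 6.3 times that in its coding sequence in the interacting library (95% interval 3.29 to 13.6) and 6.17 times in the de-crosslinked library (3.48 to 11.9). Among genes with a 5′ UTR of at least 1000 bp the median of this ratio was 2.16 over 66 genes in the interacting library, against 2.35 over 69 in the de-crosslinked one, and ste11 ranked 5 in each. GC content changes at the same border, from 31% in the 5′ UTR to 41.1% in the coding sequence, against 36.1% in the genome; its part in the ratio was not tested.

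In bins of 500 bp the densest place in the interacting library was 3983341 to 3983840, at the start of ste11, with 45 event ends (32.8 to 60.2), 22.5 times the median bin of the genome. The de-crosslinked library held 64 event ends there (49.3 to 81.7). In the de-crosslinked library the densest bin was 3981841 to 3982340, across the start of rse1, with 98 event ends (79.6 to 119), 32.7 times its median bin; the interacting library held 25 there (16.2 to 36.9). The median event end lay at -565 bp from the start of ste11 in the interacting library, against -1148 bp in the de-crosslinked one. The 2 profiles still had a similar outline, with Pearson r = 0.83 and Spearman rho = 0.89 over 20 bins that share the same sequence. The shift was noticed in the profile and then counted: 110 of 284 event ends in the locus, 38.7% (Clopper-Pearson 33 to 44.7%), lay in ste11 in the interacting library, against 144 of 610, 23.6% (20.3 to 27.2%), in the de-crosslinked library (two-sided Fisher's exact test, p = 5.1e-06, adjusted 5.53e-05). The densest bin of the interacting library rested on events near runs of A or T: without events with an end within 25 bp of such a run it held 22 event ends, and the densest bin was then the one starting at 3982841, with 27. The share in ste11 kept its direction and its side of the threshold under that alternative.

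**Figure D2:**
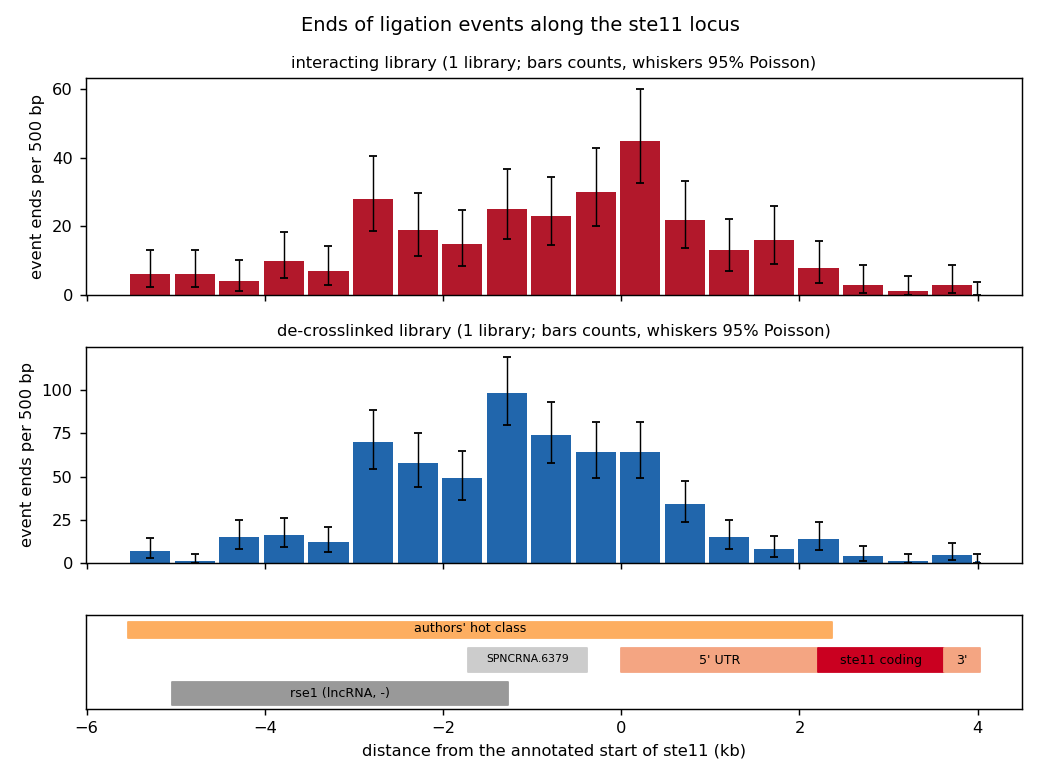
Event ends per 500 bp along the locus in the interacting library (top) and the de-crosslinked library (middle) against distance from the start of ste11, with 95% Poisson intervals and the annotated features and hot class below. The interacting library is highest just after the start of ste11, with 45 event ends, and the de-crosslinked library upstream, with 98.

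The locus held a smaller share of all ends in the interacting than in the de-crosslinked library. Counted as events it took 284 of 71022 ends, 0.4% (0.355 to 0.449%), in the interacting library, against 610 of 112036, 0.544% (0.502 to 0.589%), in the de-crosslinked one, a ratio of 0.734 (two-sided Fisher's exact test, p = 1.41e-05, adjusted 0.000106). Counted as pairs it took 0.338% and 0.56%, a ratio of 0.603. Windows of the same width give the setting: of 1313 windows, the locus ranked 3 by event ends in each library, at 6.04 times the median window in the interacting library, against 8.47 times in the de-crosslinked one. This rank favours the locus, which was defined by a hot region and framed exactly by its window. Other hot regions were cut wherever a window border fell, so the rank is a description and no test. Of 1282 windows with at least 40 event ends, 84 or 6.55% had a lower ratio between the libraries, with a median of 1.02. Dense regions as a class lean this way: over 102 hot regions with at least 200 event ends the median ratio was 0.858, and 14 or 13.7% lay below the 0.729 of the ste11 hot region. The stretch before ste11 took 0.245% of ends in the interacting library, against 0.416% in the de-crosslinked one (exact p = 7.13e-10). The ste11 gene alone took 0.155% of ends in the interacting library, against 0.129% in the de-crosslinked one (exact p = 0.156), both counted as events. Counted as pairs, ste11 took 0.13% and 0.122% of ends, a ratio of 1.06, and its ends per kb were 5.04 and 4.73 times the median coding gene. For comparison, 27.3% of the 4389 coding genes with at least 20 ends were past 1.5-fold higher in the interacting library and 29% past 1.5-fold lower.

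Of the other coding genes within 10 kb, all but the4 held 0.592 to 1.47 times the median gene in event ends per kb in the interacting library, and the same genes held 0.502 to 1.84 times in the de-crosslinked library. the4 (3974097 to 3975019) held 14 event ends in the interacting library, 3.14 times the median gene, against 9 in the de-crosslinked library, 1.32 times. dis3, the catalytic subunit of the exosome, held 18 and 26 event ends, 1.15 and 1.08 times the median. cyc3, whose last bases reach the locus, held 12 and 23 event ends, 1.47 and 1.84 times. On the other side the protein kinase gene ppk25 held 14 and 19, 1.44 and 1.27 times, and fes1, an Hsp70 nucleotide exchange factor gene, 8 and 14, 1.42 and 1.62 times.

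The comparison of the libraries asks which DNA the locus is joined to when crosslinks hold complexes together during ligation. In the interacting library the partners were close by along the chromosome much more often. Within 100 kb lay the partners of 43 of 276 events, 15.6% (11.5 to 20.4%), in the interacting library, against 11 of 607, 1.81% (0.908 to 3.22%), in the de-crosslinked library (two-sided Fisher's exact test, p = 4.97e-14, adjusted 1.12e-12). Partners on other chromosomes made up 51.1% (45 to 57.1%) of interacting and 64.7% (60.8 to 68.5%) of de-crosslinked events (exact p = 0.000149).

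Each distance class was set beside the number of events that the library's own ends in that class would give if partners were taken in proportion to them. Between 20 and 50 kb there were 16 events in the interacting library, 15.2 times that number (8.69 to 24.7), against 2 events, 0.749 times (0.0907 to 2.71), in the de-crosslinked library. Between 50 and 100 kb there were 11 interacting events, 5.77 times (2.88 to 10.3), against 4 de-crosslinked events, 0.93 times (0.253 to 2.38). Between 5 and 10 kb and between 10 and 20 kb the interacting library had 5 and 3 events and the de-crosslinked library 0 of 607 in either class, which allows a share of up to 0.606%. The intervals of the libraries overlapped in the classes under 20 kb and over 100 kb. From 100 to 200 kb there were 7 events, 1.59 times (0.641 to 3.28), in the interacting library, against 15 events, 1.48 times (0.83 to 2.44), in the de-crosslinked one. The shortest class, 2 to 5 kb, was above the number from ends in both, with 8 events, 16.7 times (7.22 to 33), in the interacting and 5 events, 4.14 times (1.34 to 9.66), in the de-crosslinked library; the tables hold no pair closer than 1999 bp. The junction with most pairs in that class, 17 pairs at 3980781 and 3983018 in the interacting library, was found in both, with 42 pairs at 3980531 and 3982966 in the de-crosslinked library.

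On chromosome III the interacting library stood under that number. Partners on chromosome III made up 32 interacting events, 0.597 times (0.408 to 0.842) the number from ends, against 112 de-crosslinked events, 0.974 times (0.802 to 1.17). For chromosome I the values were 109 events, 0.874 times (0.717 to 1.05), and 281 events, 1.03 times (0.91 to 1.15). The interacting intervals of chromosomes I and III overlapped. Interacting partners on chromosome II itself stood at 1.38 times (1.16 to 1.64), which leaves fewer events for the other chromosomes by construction. Whether other hot regions of chromosome II show the same was not tested.

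**Figure D3:**
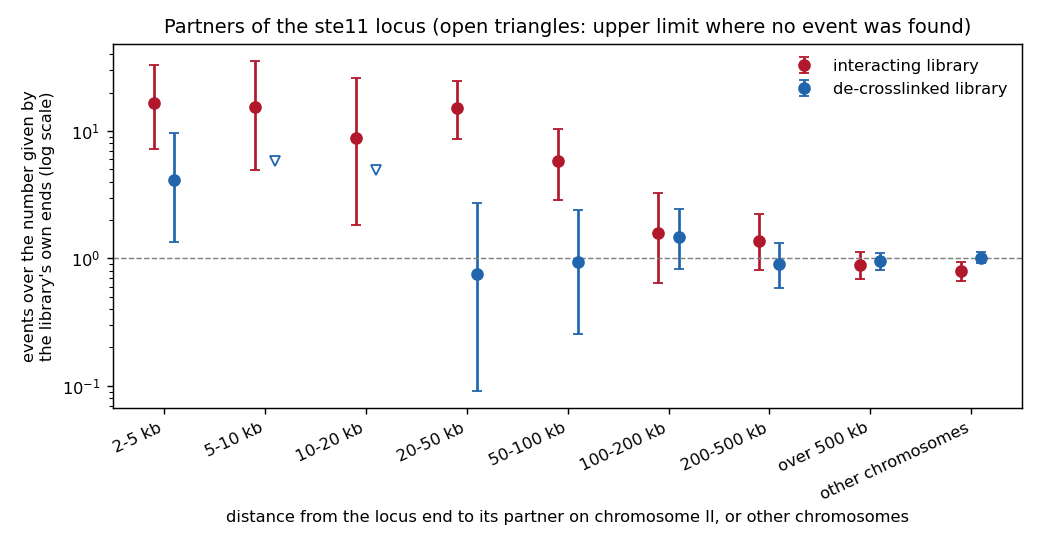
Events joining the locus to each distance class over the number given by the library's own ends (log scale), interacting in red and de-crosslinked in blue, with 95% Poisson intervals and open triangles for upper limits where no event was found. The interacting library is 15.2 times above at 20 to 50 kb, where the de-crosslinked library stands at 0.749 times, and the intervals of the libraries are apart at 20 to 50 and 50 to 100 kb and overlap in the other classes.

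The share of near partners was not detectably different from that of the whole interacting library. Other interacting events had 13.2% of partners within 100 kb (Fisher's exact test against the locus, p = 0.247), and those with a hot end on chromosome II 12.4% (exact p = 0.138). Partners on other chromosomes made up 51.1% of interacting events at the locus, against 55.3% of all other interacting events (exact p = 0.163). Among other interacting events with a hot end on chromosome II they made up 61.6% (exact p = 0.00053). That set counts an event once even where both ends are hot on chromosome II, which raises its share on other chromosomes. In the de-crosslinked library it stood at 68.1%, against 64.7% at the locus (exact p = 0.0829). How much of the difference in the interacting library comes from this way of counting was not tested, so it is given as a description only. In the de-crosslinked library the locus stood below other events, with 1.81% within 100 kb against 3.63% (exact p = 0.0154), but not detectably below those with a hot end on chromosome II, 2.55% (exact p = 0.291). Among 59 hot regions with at least 100 interacting events the ste11 region ranked 10, at 15.5% against a median of 11.2% and a range of 3.95 to 29.7%. The denser hotspot over esc1 and mug115 on chromosome I had 7.95% (5.26 to 11.4%) of its 327 interacting events within 100 kb, less than ste11 (exact p = 0.00448), and that over gti1 had 10.3% (6.52 to 15.4%) of 203, not detectably different from ste11 (exact p = 0.104). With crosslinks removed, the esc1 and gti1 hotspots stood at 1.18% and 2.28%, against 1.81% for ste11 (exact p = 0.37 and 0.667).

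Within the locus the near partners went with the upstream stretch. Leaving out events with both ends in the locus, 6 of 103 interacting events with their end in ste11, 5.83% (2.17 to 12.2%), had a partner within 100 kb, against 29 of 165 events with their end before ste11, 17.6% (12.1 to 24.3%; two-sided Fisher's exact test, p = 0.00507, adjusted 0.0163). De-crosslinked events gave shares of 2 of 143, 1.4%, and 6 of 461, 1.3% (exact p = 1). This split was chosen after the values were seen. Of the 35 interacting events that spanned 5 to 100 kb, 14 had their locus end in rse1, 9 in SPNCRNA.6379 beyond it, 6 in the gap before ste11, 5 in the 5′ UTR and 1 in the coding sequence. Of the 6 de-crosslinked ones, 2 lay in rse1, 2 in SPNCRNA.6379, 1 in the 5′ UTR and 1 in the 3′ UTR. Partners within 100 kb and outside the locus lay toward lower coordinates in 22 and toward higher ones in 13 interacting events, against 4 and 4 de-crosslinked events.

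The single events show where these partners lie. The most repeated place at low coordinates was the stretch of pph3, the catalytic subunit of protein phosphatase 4, and grx4, a glutaredoxin gene: 4 interacting events ended there, at 3955574, 3956082, 3956458 and 3957168, from locus ends 23.4, 26.6, 25.3 and 24.7 kb away, all in the cold class. The de-crosslinked library had no event there. At ppr1 and egt1, the ergothioneine synthesis gene, 3 interacting events ended 50.2, 48.5 and 49 kb away, against 0 de-crosslinked events. the4 received 2 interacting events, 7.42 and 7.89 kb away, and mcm6, a subunit of the replicative helicase, 2 events 102 and 99.8 kb away, against 0 de-crosslinked events each. These places were picked as those with most events and are counts, with no test.

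On the other side, 3 interacting events ended in the hot region of git11 and gpd1, 49.4, 51.5 and 52.4 kb away, against 1 de-crosslinked event 48.1 kb away. git11 encodes the gamma subunit of the heterotrimeric G protein that signals glucose to the cAMP pathway. The ends of that hot region would give 0.167 events in the interacting library, against 0.287 in the de-crosslinked one. The Poisson interval of the 3 events is 0.619 to 8.77. The number from ends takes no account of distance. In the interacting library all partners at 20 to 50 kb and 50 to 100 kb stood at 15.2 and 5.77 times theirs. Whether this region exceeds other DNA at its distance was not tested, and it was picked for its count. ctf1, a gene of messenger RNA 3′ end formation, received 2 interacting events, and fes1 1 event of 11 pairs, 7.83 kb away. At rgp1 and ssn6, the second a corepressor gene, 2 interacting events ended 126 and 121 kb away and 3 de-crosslinked events 123, 121 and 120 kb away, so that this place appears in both.

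**Figure D4:**
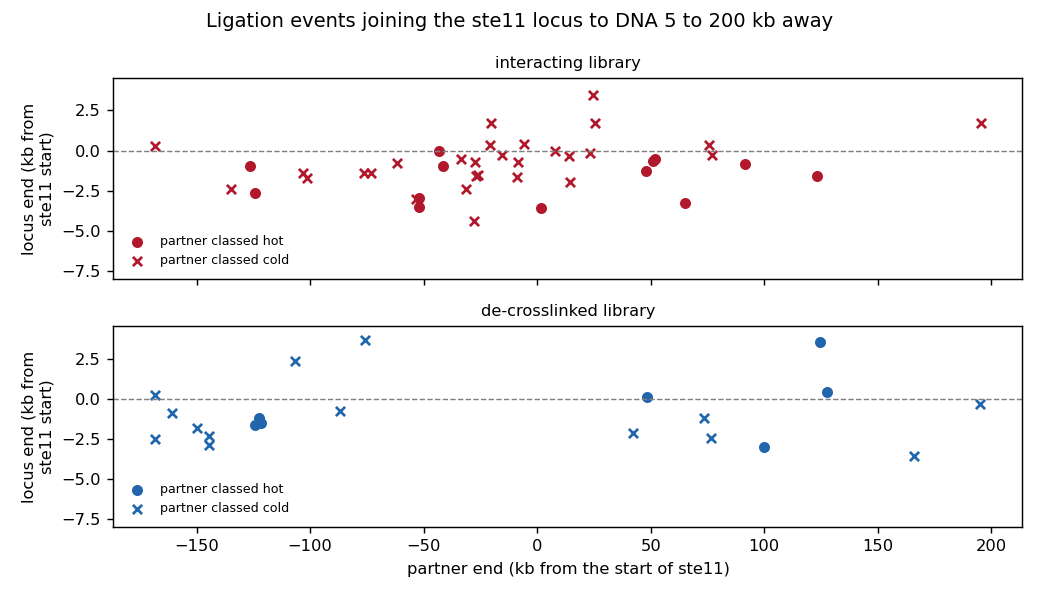
Each event that joins the locus to DNA 5 to 200 kb away, with the partner's place on the horizontal axis and the locus end on the vertical axis, both in kb from the start of ste11; interacting above, de-crosslinked below, partners in the hot class as dots and in the cold class as crosses. Of the 42 interacting events 35 span less than 100 kb, with locus ends mostly below the dashed line at the start of ste11, against 6 of the 21 de-crosslinked events.

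The class of the partner end did not differ detectably between the libraries. Hot partners made up 113 of 276 events, 40.9% (35.1 to 47%), in the interacting and 258 of 607, 42.5% (38.5 to 46.5%), in the de-crosslinked library; the difference was -1.56 percentage points (Fisher's exact test, p = 0.713). Among other ends of the same library 35.2% and 38.4% were hot (exact p = 0.0502 and 0.0402 against the locus, adjusted 0.108 and 0.0905). Near partners were hot in 10 of 35 interacting events that spanned 5 to 100 kb, 28.6% (14.6 to 46.3%), and in 1 of 6 de-crosslinked ones. For the ste11 gene alone the share was 35.8% in the interacting library, against 50.7% in the de-crosslinked one (exact p = 0.0215), for the stretch before it 45.9% and 40.1% (exact p = 0.205), and with every pair counted 36.9% and 44.9% over the locus (exact p = 0.000806).

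Partner ends lay in coding sequence less often than other ends. They did so in 116 of 276 interacting events, 42% (36.1 to 48.1%) against 50.1% of other ends (exact p = 0.00789), and in 264 of 607 de-crosslinked events, 43.5% (39.5 to 47.5%) against 50% (exact p = 0.00149). Long non-coding RNA genes outside coding genes took 19.6% (15.1 to 24.7%) of interacting partners against 16.3% of other ends (exact p = 0.141), and 22.1% (18.8 to 25.6%) of de-crosslinked partners against 17.7% (exact p = 0.00655).

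Partners were spread thinly over the other hot regions. Of 450, 79 were joined by at least 1 interacting event and 159 by at least 1 de-crosslinked event, 49 of them in both libraries; 4 and 23 were joined by at least 3. In the interacting library the most joined was the region of fhn1, an eisosome gene, and SPBC1685.17 (chromosome II, 520613 to 527913), with 4 events against 3 de-crosslinked ones, where its own ends would give 0.999 and 2.63. The region of ecl2 and sgo1 (chromosome II, 960903 to 968279) had 3 events against 0, where ends would give 0.408 and 1.02; sgo1 encodes shugoshin, the protector of centromeric cohesion in meiosis. The region of csx1, an RNA-binding protein gene, and rrp1 on chromosome I had 3 and 3 events, where ends would give 1.39 and 2.74. In the de-crosslinked library the region of gti1, a transcription factor gene, had 6 events, where ends would give 2.99, against 2 in the interacting library. The region of mug115 and esc1 had 5, where ends would give 4.57, against 2 in the interacting library. All these regions were picked from the 450 for their high counts, with no test. The Poisson interval of 4 events is 1.09 to 10.2, and that of 3 events 0.619 to 8.77.

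Genes tied to ste11 by function were read against all coding genes for partner ends. A coding gene had a partner end of the locus within 500 bp in 5.32% of cases in the interacting library, against 11.6% in the de-crosslinked one, of 5113. Of 21 genes of mating and meiotic entry that act beside or under Ste11, 1 and 4 did: mam1, which exports the M-factor pheromone, in both libraries, and in the de-crosslinked library also the formin gene fus1, gpa1, the G protein alpha subunit of the pheromone pathway, and mat1-Mc, which lies in repeated mating-type sequence and held no ends inside its own borders. Of 29 regulators of ste11, 4 and 11 did, 13.8% and 37.9%, both above the share of all coding genes. These were esc1, the kinase gene pat1, zfs1 and git11 in the interacting library. With crosslinks removed they were esc1, nrd1, phx1, gpa2, prr1, pka1, git5, atf1, cyr1, git11 and gad8. Of 15 genes of linear elements and meiotic cohesin, 0 did in either library. The lists were chosen with earlier results of these data known. The regulators also held more ends per kb themselves, with medians of 1.67 times the median gene in the interacting library and 1.45 times in the de-crosslinked one. Whether their shares with a partner end go beyond this density was not tested.

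End density over these lists was also read against the genome, where 13.3% of coding genes in the interacting library, against 8.9% in the de-crosslinked one, reached 2 times the median gene in ends per kb. The mating and meiotic entry genes did so in 3 of 21 and 3 of 21 cases, with medians of 0.966 and 0.906 times the median gene. Regulators of ste11 did so in 12 of 29 and 8 of 29 cases, with medians of 1.67 and 1.45 times; counted as events they did so in 8 and 6 cases, against 5.83% and 5.36% of all coding genes. The 6 regulators at or above 2 times in both libraries were esc1, at 4.49 and 5.75 times, pat1, at 3.43 and 2.42 times, zfs1, an RNA-binding zinc finger gene, at 3.03 and 2.61 times, ssn6, at 3.03 and 3.29 times, the transcription factor gene atf1, at 2.25 and 2.3 times, and cgs2, a gene of cAMP signalling, at 2.22 and 2.19 times. ste7, a mating gene, stood at 4.45 and 5.2 times. The high value of map3 in the interacting library, 11.2 times against 0.897 times in the de-crosslinked library, came from 257 ends but only 10 event ends. Linear element and cohesin genes reached 2 times in 3 of 15 and 2 of 15 cases, with medians of 0.898 and 1.21 times.

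Partner ends of the locus often lay at runs of A or T, more so for ends in ste11. A run was taken as at least 10 A or 10 T, or a TA repeat of at least 12 bases, defined after the values were seen. Within 25 bp of a run lay 37 of 276 interacting partners, 13.4% (9.62 to 18%), against 6.04% of other ends (two-sided Fisher's exact test, p = 6.14e-06), and 51 of 607 de-crosslinked partners, 8.4% (6.32 to 10.9%), against 4.41% (exact p = 1.67e-05). Such places make up 1.16% of genome bases. Partners of ends in ste11 lay at a run in 21.2% (13.8 to 30.3%) of interacting events, against 8.72% (4.96 to 14%) for ends before ste11 (exact p = 0.00562), and in 14.7% (9.33 to 21.6%) of de-crosslinked events, against 6.47% (4.4 to 9.1%; exact p = 0.00321).

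**Figure D5:**
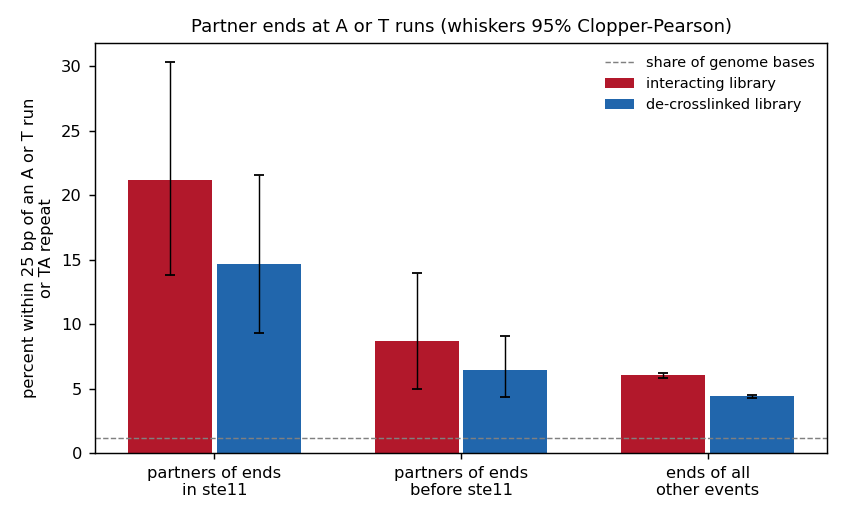
Percent of ends within 25 bp of an A or T run or TA repeat, interacting in red and de-crosslinked in blue, with 95% Clopper-Pearson intervals and a dashed line at the share of genome bases. Partners of ends in ste11 stand at 21.2% and 14.7%, above partners of ends before ste11 at 8.72% and 6.47%.

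The locus itself has 7 such runs, and when the partner lay at a run the locus end often lay near one too. This was within 300 bp in 27 of 37 interacting events, 73% (55.9 to 86.2%), against 48.5% of events whose partner was not at a run (exact p = 0.00744). The de-crosslinked library had 43 of 51, 84.3% (71.4 to 93%), against 51.4% (exact p = 3.19e-06). The 3 longest runs of the locus, on the plus strand with the run in capitals, start at -2907, -44 and 228 bp from the start of ste11.
locus T run at -2907: ttttcTTTTTTTTTTTTTTTTTTTTaaaat
locus TA repeat at -44: cgtatgTATATATATATATATATAcataca
locus T run at 228: tttgttttcTTTTTTTTTTTTactcaactt

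Some junctions were found in both libraries. Both ends lay within 500 bp of those of an event of the other library for 23 of 276 interacting events, 8.33%, and 23 of 607 de-crosslinked events, 3.79%, against 2.1% and 1.35% of other events. Those other events were not matched to the locus for density of ends, and the part of density in this difference was not tested. In 8 of the 23, 34.8%, the partner end was equal in both libraries to within 1 base. Of the 741 shared junctions elsewhere, 31.4% had either end equal to within 1 base, which is a looser count. The 6 of these 8 places whose shared end lay within 5 bp of a run are shown, on the plus strand with the run in capitals.
partner at chromosome I 2525297: tttttAAAAAAAAAAAAAAAAAAAgataat
partner at chromosome I 2932748: tcATATATATATATATATATATATATAcat
partner at chromosome I 2525716: ccttcTTTTTTTTTTTTTTTTTTTTactta
partner at chromosome I 4179706: cTTTTTTTTTTTTTTTTTTTTTTTTTTTTa
partner at chromosome II 3815031: ccTTTTTTTTTTTTTTTTTTTTTTTTTTac
partner at chromosome II 1550402: taaaagatggAAAAAAAAAAcaaagaaaaa
The part of these junctions in the share of ends in ste11 was measured by leaving them out, and that share kept its direction and its side of the threshold.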

How the data were processed

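Ligated pairs were measured in 1 interacting and 1 de-crosslinked library of Rec27-GFP; 6 of the 8 samples were not analysed here. Per the file headers, the deposited tables hold 1 line per pair, with the chromosome, position and hot or cold class of each end. The submitters' processing notes name CASAVA 1.8.0; the aligner, genome build and rule behind the class are not given in the sources used here. Counts of pairs were made by counting lines of these deposited tables. Sequence of ASM294v3 that a 50 bp word cannot place, 468527 bp, held 0 ends, against 2460 and 2466 ends with positions moved by -100 and 100 bp. Positions are as the tables give them.

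Pairs with both ends within 500 bp were linked into events, and the median end stands for each. Merging was tested on simulated junctions spread evenly over the genome, apart from those placed at the locus. Junctions crowded between hot regions, where distinct ones may be linked, were not simulated. Python 3.11.15, scipy 1.17.1 and pandas 2.3.3 were used. Intervals are exact Poisson or Clopper-Pearson at 95%. Genes named are those at or within 10 kb of the locus, at hot regions joined by at least 2 events, at partner ends 5 to 200 kb away, or list members with a partner end; ste7, map3 and cgs2 were named after their values were seen, and rec12 as the deleted gene. The locus, gene lists and motifs were chosen with earlier results of these data known. Alternatives were every pair counted, other link distances, other limits and borders, and, added after the data were seen, leaving out events at A or T runs or found in both libraries.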

Additional observations from a re-analysis of the deposited data

How the results depend on the processing

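The results named in the next sentences, 14 in all, were recomputed under those of the alternatives that apply to each, which gave 102 values, of which 88 kept their direction, their side of the threshold or, for counts, stayed within 1.5 times. The shares within 100 kb, on other chromosomes and in ste11, the split of near partners between ste11 and the stretch before it, and the density of the 5′ UTR over the coding sequence were among these under every alternative run. The share of ends in the locus reversed for the ste11 gene alone, where interacting less de-crosslinked was 0.0264 percentage points. The share of hot partners passed the threshold with every pair counted, at -8.01 points, and for the ste11 gene, at -14.9 points; the cause was not tested. The densest 500 bp of the interacting library moved to 3982841 without events at A or T runs. Hot regions joined by at least 2 events numbered 23 in the interacting library, against 44 with every pair counted, 11 without events at runs, 15 without junctions of both libraries, 11 for the stretch before ste11 and 4 for ste11. In the de-crosslinked library they numbered 52, against 95 with every pair counted, 34 before ste11 and 14 for ste11; splitting the locus leaves fewer events by construction. Coding genes at or above 2 times the median gene numbered 298 of 5113 in the interacting library, against 274 in the de-crosslinked one, as events, and 680 and 455 as ends.

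No paired analysis was possible because each group is 1 library and the labels give no replicate numbers. Of the events, 180 of 276 interacting and 354 of 607 de-crosslinked ones are 1 pair each. Distance classes, partner features, runs, lists and the comparisons with other events were not recomputed.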
